A study of Mus musculus with 2 samples.

Results

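The S100 calcium-binding proteins were followed in UVB-induced mouse skin tumours through 10 genes, S100a3, S100a4, S100a6, S100a7a, S100a8, S100a9, S100a10, S100a11, S100a14 and S100b. They were taken as the non-control probes whose gene name on the array is one of these, which gave 11 probes of 56605 on the array and 10 of 37320 gene names. The tumours came from the backs of male mice, P2ry6-/- and P2ry6+/+ (WT), that were 2 months old when irradiation began. P2ry6 encodes a G protein-coupled receptor for the nucleotide UDP. Both genotypes were irradiated with UVB at 180 mJ/cm2 over 10 weeks, in weekly steps of 10 mJ/cm2 after that, and at 300 mJ/cm2 between week 22 and week 40. Each genotype is represented by 1 RNA sample on 1 single-colour Agilent array. How many tumours or mice went into a sample, which part of P2ry6 was deleted and in which cells, and the strain of the mice are not given in the sources used here. With 1 array per genotype there are no replicates, so no test between genotypes was possible and every difference below describes these arrays.

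S100 proteins are small proteins that bind calcium through a pair of EF-hand helix-loop-helix motifs and mostly act as dimers. Inside the cell, calcium exposes a surface that grips partners such as annexins, cytoskeletal proteins and kinases. Some are released by stressed keratinocytes and myeloid cells and act outside the cell as alarm signals and antimicrobial proteins. In skin, S100a8 and S100a9 are low in resting epidermis and are induced in wounds, psoriasis and squamous tumours, and the genes of most family members lie in a cluster beside the genes of the cornified envelope.

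The promoters of the alarm signal genes S100a8, S100a9 and S100a7a and of S100b are shown because these genes include the inducible pair of the family and the members that differed most. Each runs 5′ to 3′ over 300 bases, of which the first 250 lie before the annotated start (RefSeq, GRCm38.p6). The windows are chr3:90668821-90669120 on the plus strand for S100a8, chr3:90695672-90695971 on the minus strand for S100a9, chr3:90654052-90654351 on the plus strand for S100a7a and chr10:76253586-76253885 on the plus strand for S100b. Capitals mark any match, on either strand, to one of 6 motifs. The TATA box was searched as TATAAA. The AP-1 motif was searched as TGANTCA. The letters for C/EBP factors were TTNNGNAA. STAT factors were searched with TTCNNNGAA. The NF-kB motif was GGGA and CC with any 4 bases between them. KLF factors were searched with GGGGNGGGG. No matches overlap in the windows shown.
S100a8 promoter: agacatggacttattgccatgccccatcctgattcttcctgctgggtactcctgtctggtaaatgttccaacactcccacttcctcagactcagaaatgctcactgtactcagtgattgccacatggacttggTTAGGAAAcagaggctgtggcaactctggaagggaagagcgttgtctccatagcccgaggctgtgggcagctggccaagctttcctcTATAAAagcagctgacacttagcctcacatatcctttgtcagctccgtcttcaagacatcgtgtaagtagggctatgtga
S100a9 promoter: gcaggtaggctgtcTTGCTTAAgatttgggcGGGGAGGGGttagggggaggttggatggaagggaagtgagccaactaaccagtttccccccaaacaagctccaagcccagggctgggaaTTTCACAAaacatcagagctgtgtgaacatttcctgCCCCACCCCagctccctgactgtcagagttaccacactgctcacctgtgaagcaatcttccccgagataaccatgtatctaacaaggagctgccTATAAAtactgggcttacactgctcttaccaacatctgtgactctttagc
S100a7a promoter: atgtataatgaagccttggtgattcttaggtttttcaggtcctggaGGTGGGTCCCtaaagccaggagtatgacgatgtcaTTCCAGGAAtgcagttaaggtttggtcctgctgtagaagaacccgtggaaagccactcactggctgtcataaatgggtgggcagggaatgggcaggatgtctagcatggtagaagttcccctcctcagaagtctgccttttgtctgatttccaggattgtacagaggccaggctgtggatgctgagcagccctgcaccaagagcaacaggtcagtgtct
S100b promoter: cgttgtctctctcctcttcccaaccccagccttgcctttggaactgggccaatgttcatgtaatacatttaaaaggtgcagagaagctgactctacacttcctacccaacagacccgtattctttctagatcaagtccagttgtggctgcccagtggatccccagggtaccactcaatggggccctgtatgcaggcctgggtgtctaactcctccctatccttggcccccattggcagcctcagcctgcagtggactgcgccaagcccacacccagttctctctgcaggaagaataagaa
S100a8 held TATAAA 30 bases before its start and 1 C/EBP match 117 bases before it. S100a9 held 2 C/EBP matches, 236 and 130 bases before its start, 2 KLF matches, and TATAAA at the annotated start itself. S100a7a held 1 STAT match and 1 NF-kB match, and S100b none of the 6 motifs. Of all 32851 promoter windows in the table, 13.6% held TATAAA, 7.81% AP-1, 40.7% C/EBP, 8.30% STAT, 20.7% NF-kB and 22.4% KLF. Among the 8 members with a window in that table, these motifs were found in 4, 1, 3, 1, 3 and 2 in that order, and the AP-1 letters only in S100a11. A match is a run of letters and not a measured binding site.

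The signals themselves came from 60-base probes, and the first 30 bases of 4 of them are given to show what was hybridised, as listed in the array files on mm9 (S100a8 at chr3:90473778-90473837, plus strand; S100a9 at chr3:90496573-90496632, minus strand; S100a7a at chr3:90461922-90461981, plus strand; S100b at chr10:75723783-75723842, plus strand). Whether a probe lies in an exon, an intron or an untranslated region was not annotated here.
S100a8 probe start: cttgttcagagaattggacatcaatagtga
S100a9 probe start: gtctaaagggaatggcttactcaatggcct
S100a7a probe start: gttcagtaaaagaagtttagtttttattat
S100b probe start: gaagctggacttgaggctttctaacttgca
Signals of different probes cannot be set against each other, since each binds with its own strength.

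Both arrays had similar quality. On the array labelled P2ry6-/- (KO-labelled below) 57.9% of the non-control spots passed the scanner software's call of well above background, against 57.8% on the WT-labelled array, and none was saturated on either. P2ry6, the targeted gene, was 2.44-fold higher on the KO-labelled array by both of its probes (log2 difference 1.29 ± 0.01, SD, n = 2 probes). Such a difference is not what the label alone would give. Whether the probes lie in the deleted part, which cells carry the deletion and whether the labels are right cannot be told apart here. Each direction below therefore rests on the labels. Values are log2 processed signals relative to the 75th percentile of the array, and differences are KO-labelled minus WT-labelled. The difference of a single spot had an SD of 0.12 log2 units over 292 probes with replicate spots, and different probes of a gene disagreed with an SD of 0.38. Each of the 11 S100 probes had 1 spot and passed that call on both arrays.

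**Figure D1:**
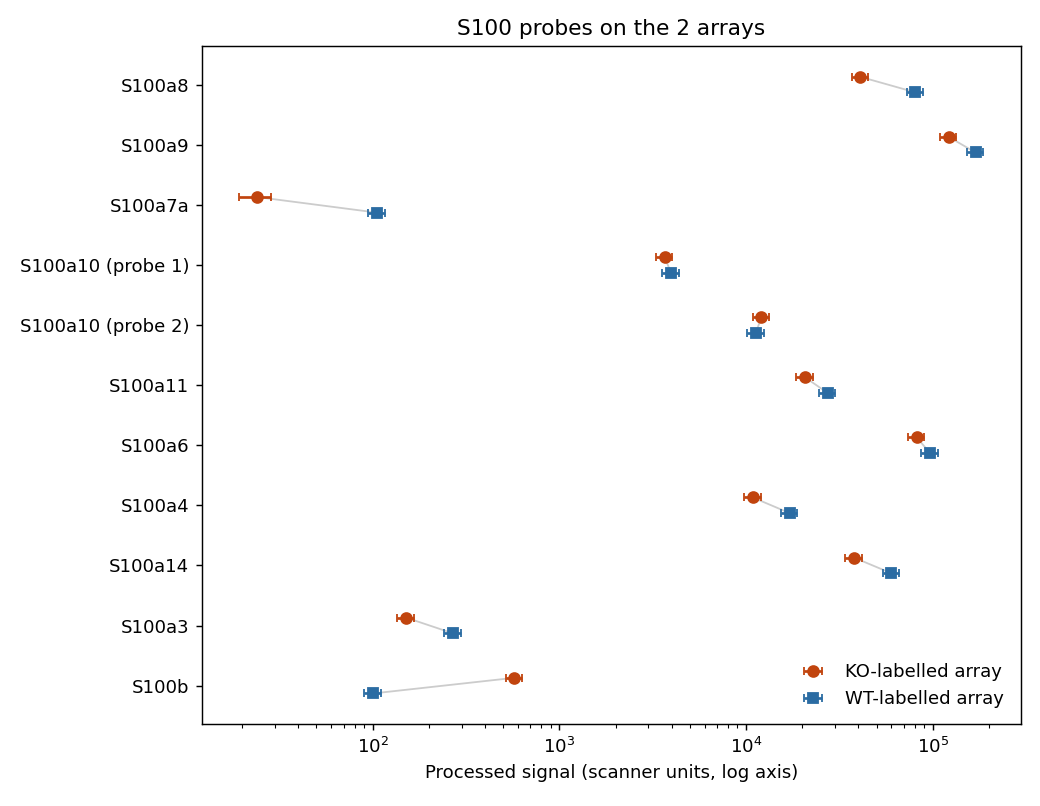
Processed signal of each S100 probe in scanner units on a logarithmic axis, with the KO-labelled array (circles) above the WT-labelled array (squares). Bars are the error modelled by the scanner software, and rows are different probes, so only the 2 points of a row can be compared. S100b is higher on the KO-labelled array and S100a7a lower, and the remaining pairs lie within 2-fold.

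Of the inflammatory alarm signal genes S100a7a, S100a8 and S100a9, S100a7a passed 2-fold downward on the KO-labelled array, and S100a8 and S100a9 did not. S100a7a, the mouse relative of human psoriasin and a chemoattractant of inflamed epidermis, gave a signal of 23.9 ± 4.69 on the KO-labelled array and 105 ± 11.2 on the WT-labelled array (± error modelled by the scanner software). Its levels were −3.77 and −1.72, a log2 difference of −2.05 or 4.15-fold lower. It was dim where it was low, since the lowest signal that counted as well above background on the KO-labelled array was 17.4. The size therefore depended on the background correction, and normexp correction gave −0.94.

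S100a8 and S100a9 form the heterodimer calprotectin, which sequesters zinc and manganese and signals through pattern receptors. S100a8 gave 40847 ± 4085 on the KO-labelled array and 80867 ± 8087 on the WT-labelled array. Its log2 difference was −0.90 (1.87-fold lower), short of 2-fold. S100a9 gave 121665 on the KO-labelled array and 169636 on the WT-labelled array, a log2 difference of −0.39 (1.31-fold lower). The S100a9 difference was about as large as the SD between probes of a gene and was −0.09 under cyclic loess normalization, where S100a8 differed by −0.62.

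Members that work with annexins differed little. S100a10, which joins annexin A2 in a tetramer at the plasma membrane, was read by 2 probes. The one at chr3:93368437-93368496 gave 12062 on the KO-labelled array and 11307 on the WT-labelled array. The one at chr3:93368276-93368335 gave 3668 on the KO-labelled array and 3958 on the WT-labelled array. The probes lay on opposite sides of 0 (0.18 and −0.02), and their mean of 0.08 ± 0.14 (SD, n = 2 probes) was within the spread between probes. S100a11, a partner of annexin A1 that is cross-linked into the cornified envelope, gave 20686 on the KO-labelled array and 27348 on the WT-labelled array, a difference of −0.32. The array files list an S100a11 pseudogene transcript for the same probe, so its signal may hold both. S100a6 (calcyclin), a protein of dividing cells that binds the ubiquitin ligase adaptor Cacybp, gave 82090 on the KO-labelled array and 96669 on the WT-labelled array. Its difference of −0.15 turned to 0.14 under cyclic loess normalization.

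The 3 remaining members of the chromosome 3 cluster were lower by less than 2-fold. S100a4, a protein of motile fibroblasts, macrophages and metastatic cells that binds non-muscle myosin, gave 10871 ± 1087 on the KO-labelled array and 17131 ± 1713 on the WT-labelled array (−0.57, 1.49-fold lower). S100a14, an epithelial member whose EF hands bind calcium weakly, gave 37830 ± 3783 on the KO-labelled array and 59990 ± 5999 on the WT-labelled array (−0.58, 1.49-fold lower). S100a3, a cysteine-rich protein of the hair cuticle, gave 151 ± 15.6 on the KO-labelled array and 269 ± 27.2 on the WT-labelled array (−0.74, 1.68-fold lower). On the 75th percentile scale each of these gaps exceeded the SD of 0.38 between probes of a gene. S100a4 fell short of that SD under quantile normalization (−0.28), cyclic loess (−0.34) and in the authors' deposited values (−0.30), and S100a14 did so under cyclic loess (−0.30). S100a3 stayed beyond it, between −1.21 and −0.58.

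S100b was the only member that passed 2-fold upward. It encodes a protein of Schwann cells, other glia, melanocytes and fat cells that acts inside the cell on p53 and cytoskeletal proteins and outside it on the receptor Ager. Its gene is also the only member outside chromosome 3. The signal was 575 ± 57.6 on the KO-labelled array and 101 ± 10.74 on the WT-labelled array. The levels of 0.81 and −1.78 differ by 2.60 log2 units, or 6.06-fold higher, which ranked 24 of 19873 measured genes counted from the highest. The difference stayed between 2.04 and 2.64 under the alternatives that measured it, and the stricter filter on dim probes left it out.

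Of the 10 members, 1 (S100b) was at least 2-fold higher, 1 (S100a7a) at least 2-fold lower and 8 neither. Over all 19873 genes measured on both arrays the shares were 4.82% higher and 5.04% lower. Centring each array on its median turned those shares to 3.82% and 6.18%, and left the members' counts as they were. Differences below 0 were found in 8 of the 10 members, against 54.9% of all genes, and the members' median was −0.48 against −0.06 over all genes. Relative to the spike-in controls every difference would read 0.46 lower. On that scale 5 members were at least 2-fold lower, beside 15.7% of all genes, and S100b was still 2.14 log2 units higher.

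**Figure D2:**
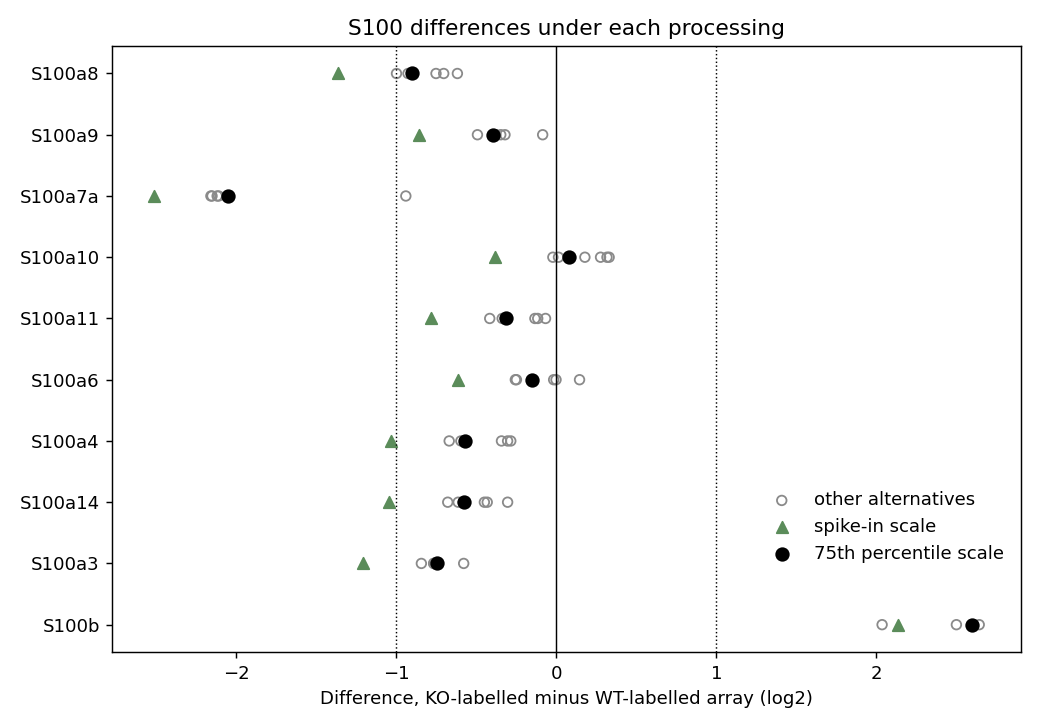
Difference of each S100 gene, KO-labelled minus WT-labelled array, in log2 units, under each processing, with dotted lines at 2-fold. Black points are the 75th percentile scale, triangles the spike-in scale and open circles the other alternatives. S100b lies above 2 and S100a7a lies below −2 except under normexp correction at −0.94, while S100a10 and S100a6 have points on both sides of 0.

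Other genes of the family did not pass 2-fold. S100a16, an epithelial relative of S100a14, differed by −0.73 ± 0.16 (SD, n = 2 probes), S100a13, a copper-binding protein of stress-induced secretion, by −0.25, and S100a1, best known from heart muscle, by 0.07, which turned to −0.03 under median centring. S100a2, added after its value was seen, differed by −0.10 and by 0.06 under normexp. S100a5, S100a7l2, S100g and S100z were not well above background on either array. Of the fused-type relatives, large epidermal proteins that begin with an S100 domain, 6 were measured. Repetin (Rptn, −1.11), hornerin (Hrnr, −1.08) and trichohyalin (Tchh, −1.06) passed 2-fold downward, 0 upward and 3 in no direction, namely Flg2 (−0.85 ± 0.22, SD, n = 2 probes), cornulin (Crnn, −0.54) and Tchhl1 (−0.11). Their median was −0.96, beside −0.06 over all genes, of which 5.04% were at least 2-fold lower. None of the 6 passed 2-fold under quantile normalization, cyclic loess or in the authors' deposited values, where Rptn differed by −0.87, −0.92 and −0.90 and Tchhl1 lay just above 0.

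Of the members, 9 lie in 2 blocks of chromosome 3 on mm9. One runs from S100a14 to S100a9 over 164 kb (chr3:90332439-90496632) and the other holds S100a11 and S100a10 within 38.5 kb (chr3:93330022-93368496). Of the other genes measured between these ends, 54 of 54 differed by less than 0, against 54.9% of all genes, with a median of −1.05 and a range of −2.47 to −0.01. At least 2-fold lower were 31 of them (57.4%, beside 5.04% of all genes), 0 were higher and 23 neither. They include S100a16, S100a2 and the 6 measured fused-type genes above. Lor, Ivl and some Sprr and Lce genes among them are also in the keratinocyte lists below, so these counts are not separate results. Small proline-rich envelope genes were at the low end, with Sprr2j-ps at −2.47, Sprr3 at −2.14, Sprr2k at −2.11, Sprr2f at −1.99 and Sprr2b at −1.97. Sprr3 was dim on the KO-labelled array (level −3.61) and differed by −1.04 under normexp. These and the Lce genes of the late envelope belong to families of near-identical copies whose probes may share signal, so the 54 are not 54 separate readings. The S100 members at the ends (S100a9 and S100a14 at −0.39 and −0.58, S100a11 and S100a10 at −0.32 and 0.08) were closer to 0 than the median of the genes between them. Of the members on chromosome 3, S100a7a alone lay beyond that median, at −2.05, and S100a8 came next at −0.90. This region was marked out after the members' positions were seen. The count at least 2-fold lower was 15 under quantile normalization, 16 under cyclic loess, 19 with the authors' deposited values and 50 on the spike-in scale, and at least 49 genes stayed below 0 in every alternative.

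**Figure D3:**
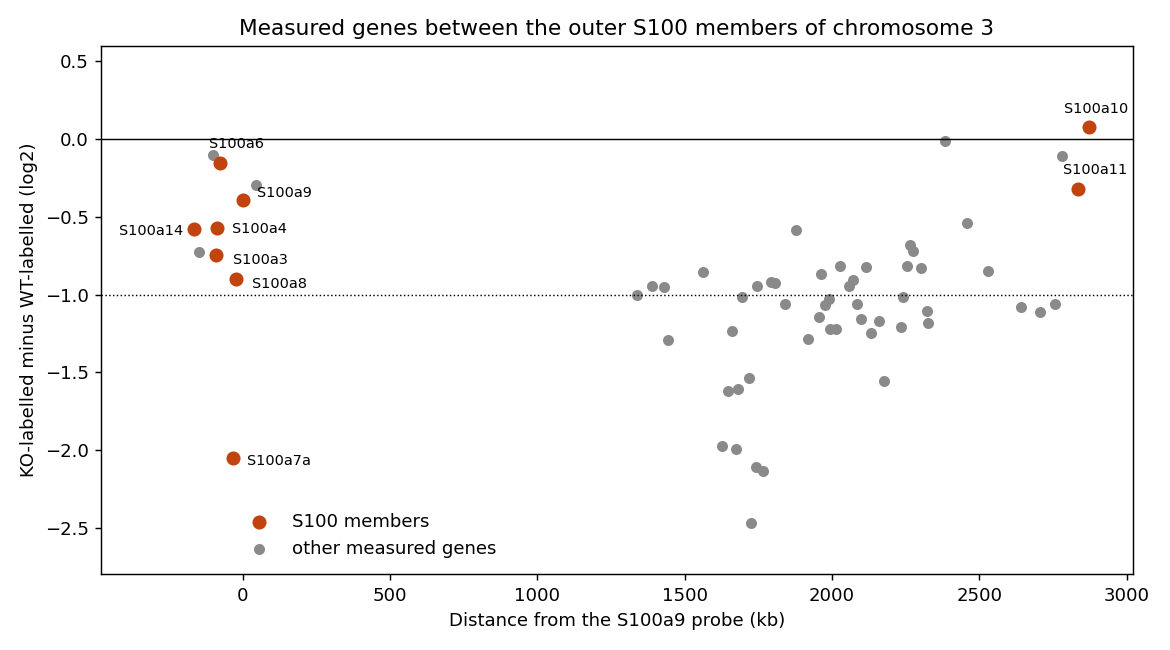
Difference of each measured gene, KO-labelled minus WT-labelled array (log2), against its distance in kb from the S100a9 probe, for genes between the outer S100 members of chromosome 3. The dotted line marks 2-fold lower. All 54 other genes (grey) lie below 0, and of the members (red) S100a10 alone lies above it.

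Genes of transcription factors known to act on epidermal S100 genes lay below 0. Of 14 genes, 6 passed 2-fold downward, 0 upward and 8 in no direction, with a median of −0.84 and 14 of 14 below 0 on the 75th percentile scale. Under cyclic loess 3 passed 2-fold downward, with Klf4 at −0.91, and under quantile normalization 11 of 14 were below 0. The AP-1 subunit genes Fosb (−3.28), Fos (−2.36) and Fosl1 (−2.06) led the list, followed by Klf4 (−1.19), a regulator of the epidermal barrier. Of 15 cytokines and receptors known to induce epidermal S100 genes, 11 were measured, of which 1 passed 2-fold upward, 3 downward and 7 in no direction. The cytokine genes Il6 (−2.21), Il36a (−1.62) and Il36g (−1.10) were lower and Osm (1.39, oncostatin M) was higher. Il6 differed by −1.11 under normexp and Osm by 0.93 on the spike-in scale. The interleukin genes Il17a, Il17c, Il17f and Il22, whose products act on keratinocytes, were not well above background on either array. The median of −0.31 turned to 0.05 under the stricter filter and when the brightest probe stood for a gene.

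Receptors and partners of S100 proteins differed less. Of 7 receptor genes 1 passed 2-fold downward, 0 upward and 6 in no direction (median −0.20). That gene was Cd36, a scavenger receptor that also takes up fatty acids, at −3.56, while Alcam differed by 0.62, Ager, the receptor for advanced glycation end products, by 0.43 ± 0.27 (SD, n = 7 probes) and Bsg by −0.38. Cd36 differed by −2.23 under normexp, and the stricter filter left it out, with 0 of 6 receptor genes past 2-fold. Of 11 partners 1 passed 2-fold upward, 0 downward and 10 in no direction (median −0.10, which turned to 0.02 under quantile normalization, 0.03 in the authors' deposited values and 0.08 under the stricter filter). Anxa6 was the higher one (1.19 ± 0.27, SD, n = 2 probes, and 0.89 under normexp), and the partners of S100a10 and S100a11 differed by −0.57 ± 0.26 (Anxa2, SD, n = 2 probes) and −0.55 ± 0.07 (Anxa1, SD, n = 3 probes).

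Several cell types that express S100 genes also differed between the arrays, and in bulk tumour RNA fewer cells of a type and less RNA per cell cannot be told apart. A summed level is set mostly by the brightest probes of a list, so it need not follow the median. The keratinocyte markers of all layers were well above background on both arrays. Of 16 suprabasal and cornified layer markers 10 passed 2-fold downward, 0 upward and 6 in no direction (median −1.14, summed level 9.99 on the KO-labelled and 10.97 on the WT-labelled array), led by Tgm3 (−2.17 ± 2.18, SD, n = 2 probes), Casp14 (−1.85), Dsg1a (−1.66) and Krt1 (−1.62). The count was 6 of 16 under quantile normalization, cyclic loess and in the authors' deposited values. Of 14 hyperproliferative markers 6 passed 2-fold downward, 1 upward and 7 in no direction (median −0.93, summed level 11.5 and 11.8 on the KO-labelled and WT-labelled arrays). Lower were, among others, Serpinb3a (−2.50), the beta-defensin gene Defb4 (−2.26), Sprr3 (−2.14, and −1.04 under normexp) and Sprr2d (−1.62). The one upward was Lcn2 (1.099 ± 0.05, SD, n = 2 probes). On the spike-in scale 0 of the 14 passed 2-fold upward, with 0.64 the highest. The keratin genes Krt6a (−0.03), Krt6b (−0.37), Krt16 (−0.61 ± 0.47, SD, n = 2 probes) and Krt17 (0.13) did not pass 2-fold. Lcn2 and these keratin genes were named after their values were seen. Ivl and Tgm1 are in both this list and the suprabasal one. Of 10 basal markers 1, Krt5 (1.66), passed 2-fold upward, 0 downward and 9 in no direction (median 0.03, summed level 10.4 and 9.99). The direction of the basal median flipped under normexp, median centring, the brightest probe and the spike-in scale. The part of these layers in the lower S100a7a, S100a8 and S100a14 was not tested.

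Neutrophils are the richest source of S100a8 and S100a9. Of 16 neutrophil markers 11 were measured, of which 3 passed 2-fold upward, 0 downward and 8 in no direction, with a median of 0.29 and a summed level of 7.37 on the KO-labelled and 7.17 on the WT-labelled array. Csf3r, named after its values were seen, made up most of that summed level, with levels of 7.26 on the KO-labelled and 7.10 on the WT-labelled array. Clec4d (1.58), Retnlg (1.502) and Fpr2 (1.38) were higher, Ly6g differed by −0.81, and Fpr1 was above background on the KO-labelled array alone, at least 6.41-fold higher. The granule genes Prtn3, Ltf and Ngp and the surface marker Cd177 were not well above background on either array. The median was −0.17 on the spike-in scale, and Fpr2 differed by 0.94 under normexp. The part of neutrophils in the S100a8 and S100a9 values was not tested.

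Cell types around S100a4 differed in unlike ways. Of 14 measured macrophage and monocyte markers 7 passed 2-fold upward, 1 downward and 6 in no direction (median 1.02, summed level 5.604 on the KO-labelled and 4.69 on the WT-labelled array), led by Cx3cr1 (2.78), Fcgr1 (1.71), Mertk (1.35) and Cd14 (1.33 ± 0.02, SD, n = 2 probes). The one lower was Mrc1 (−1.07). Cd163 was above background on the WT-labelled array alone, at least 1.66-fold lower. Mrc1 and Cd163 were named after their values were seen. With no filter 6 of 15 macrophage and monocyte markers passed 2-fold upward and 2 downward. Under normexp 4 passed 2-fold upward, with Fcgr1 at 0.89 and Mertk at 0.64, and on the spike-in scale 2. Of 12 fibroblast markers 1, Dpt (1.32, and 0.75 under normexp), passed 2-fold upward, 0 downward and 11 in no direction (median −0.05, summed level 6.48 and 6.54 on the KO-labelled and WT-labelled arrays), and that median lay above 0 under quantile and loess normalization and in the authors' values. S100a4 itself was 1.49-fold lower. For S100a3, the cells of interest are those of the hair cuticle and cortex, and of their 9 measured markers 3 passed 2-fold downward, 0 upward and 6 in no direction (median −0.80, summed level 3.75 and 4.09), with Foxn1 at −1.25, Krt86 at −1.12, Krt31 at −1.11 and Msx2 at −0.99 ± 0.57 (SD, n = 2 probes). Hoxc13, named after its value was seen, went the other way at 0.72. None of the 9 passed 2-fold under normexp (Foxn1 at −0.94, Krt31 at −0.52, Krt86 at −0.33), and none of the 3 left by the stricter filter did, with a median of −0.30. A further 6 were above background on the WT-labelled array alone. Krt33a among them was at least 4.003-fold lower, and the other bounds were 1.17-fold to 1.56-fold. Over all genes 1089 were above background on the WT-labelled array alone and 1012 on the KO-labelled array alone. The part of hair cuticle and cortex cells in the S100a3 difference was not tested.

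None of the measured markers of the cells best known for S100b passed 2-fold upward on the 75th percentile scale. Of 16 Schwann cell markers 11 were measured, of which 0 passed 2-fold upward, 2 downward and 9 in no direction (median −0.60, summed level 5.30 on the KO-labelled and 5.07 on the WT-labelled array), with the myelin gene Mbp at −2.21, the adhesion gene L1cam at −1.32, Ngfr at −0.96 and Pmp22 at −0.78 ± 0.19 (SD, n = 2 probes). Egr2, a transcription factor gene of myelination named after its value was seen, went the other way at 0.75. Its levels of 5.05 on the KO-labelled and 4.30 on the WT-labelled array made up most of the Schwann cell summed level. With no filter Mbp differed by −0.74 and L1cam by −0.95, while 2 of 16 Schwann cell markers were still at least 2-fold lower, the lowest at −2.60. Under quantile normalization and in the authors' deposited values 1 Schwann cell marker passed 2-fold upward. The glial transcription factor gene Sox10 was above background on the WT-labelled array alone, at least 2.12-fold lower, and Cdh19, Foxd3, Gfap and Pmp2 were not well above background on either. Of 5 measured melanocyte markers 3 were at least 2-fold lower and 0 higher (median −1.77, summed level 0.19 and 1.78), namely Pmel (−3.07), Dct (−2.82 ± 2.72, SD, n = 2 probes) and Mlana (−1.77 ± 0.25, SD, n = 2 probes), while Kit differed by 0.69 ± 0.63 (SD, n = 2 probes). The stricter filter left 2 of them, with a median of −0.17 and 0 past 2-fold. Tyrp1 and Tyr, enzymes of pigment synthesis, were above background on the WT-labelled array alone, at least 7.71-fold and at least 2.14-fold lower. Of 5 measured adipocyte markers 3 were at least 2-fold lower and 0 higher (median −1.67, summed level 3.41 and 5.15), namely Plin4 (−3.98), Cidec (−3.34) and Fabp4 (−1.67 ± 0.29, SD, n = 2 probes), with Lipe at −0.76, while Adipoq, Plin1 and Cfd were not well above background on either array. The adipocyte median was −0.54 over 8 genes with no filter and −1.22 over 2 genes under the stricter one. Dendritic and Langerhans cell markers were higher in 3 of 7 measured and lower in 1 (median 0.95, summed level 6.49 and 5.57), with H2-Aa at 1.27, Itgax at 1.21 and Ciita at 1.14 against Cd207 at −1.66, while Xcr1, Clec9a, Cd209a and Zbtb46 were not well above background on either array. On the spike-in scale 0 of the 7 passed 2-fold upward, and under normexp Cd207 differed by −0.99. T and NK cell markers were lower in 2 of 9 measured and higher in 0 (median −0.13, which reached 0.01 under normexp, summed level 1.64 and 1.94), Gzmb (−2.62, and −1.21 under normexp) and Cd2 (−1.29 ± 0.17, SD, n = 2 probes, and −0.92 under normexp). Above 0 were 3 of the 9, among them Prf1 (0.87) and Cd8b1 (0.74). Gzmb was dim on the KO-labelled array, at a level of −4.08 where the lowest counted as well above background was −4.23. The part of dendritic cells or of any other cell type in the S100b difference was not tested.

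**Figure D4:**
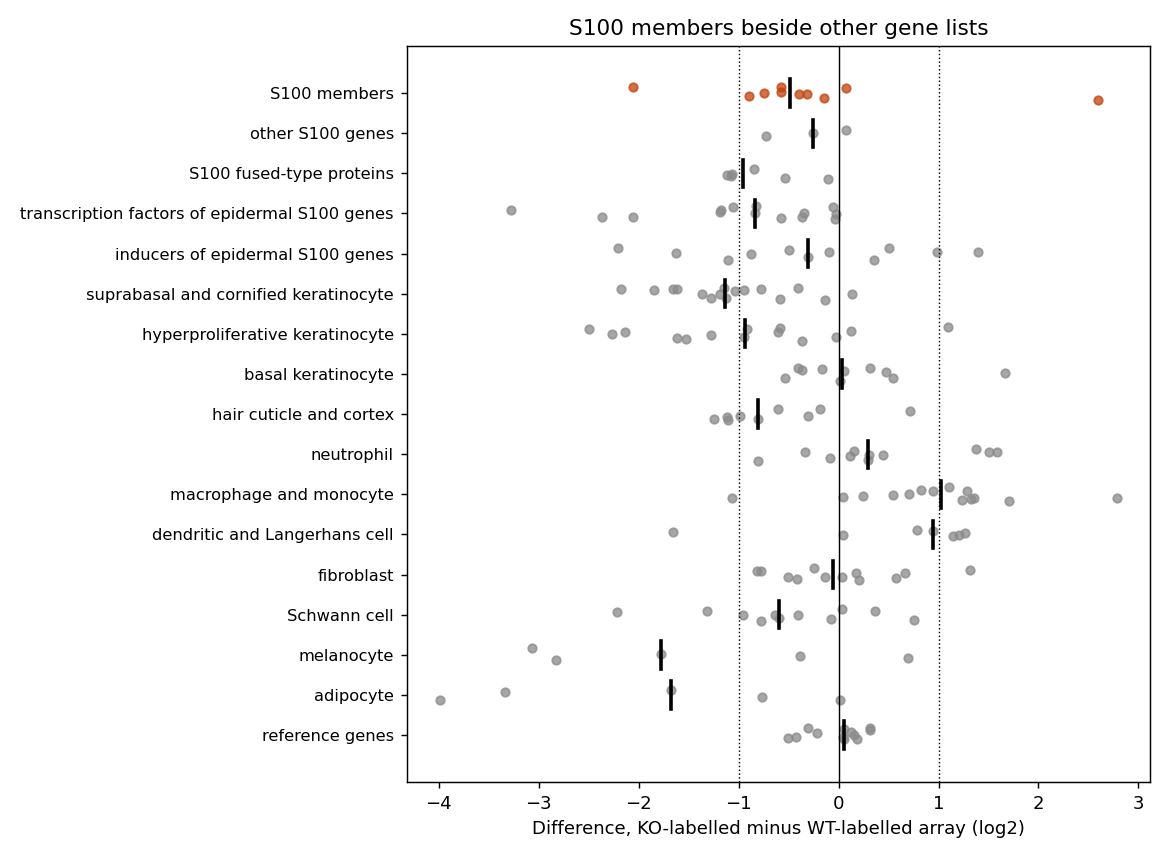
Difference of each measured gene, KO-labelled minus WT-labelled array (log2), for the S100 members (red) and the other gene lists (grey). Black bars are medians and dotted lines mark 2-fold. The S100 median lies at −0.48, between the suprabasal list at −1.14 and the reference genes at 0.06, and S100b lies to the right of every Schwann cell, melanocyte and adipocyte marker.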

How the data were processed

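Total RNA of 2 tumour samples was hybridised to single-colour Agilent arrays. Per the file headers and per the submitters' processing notes, spot intensities are the authors' output of Agilent Feature Extraction 10.7.1.1, background-subtracted and detrended but not normalized between arrays. Both arrays shared 1 slide and 1 scan. The authors also deposited log2 values, which matched the scanner signals after quantile normalization (r = 0.9997 and 0.9999 over 56594 probes, with a median of 4.96 in both columns). How the authors made them is not stated in the sources used here.

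Spots marked as outliers were left out (105 and 102), spots of a probe averaged, and log2 processed signals set against the 75th percentile of the array over non-control probes (signals of 327 and 347 on the KO-labelled and WT-labelled arrays). A probe entered if most of its spots passed the call of well above background on each array, and a gene was the mean of its measured probes. A gene above background on 1 array got a bound. RefSeq accessions (GRCm38.p6) kept the names of 31449 probes and updated 1534, and 23611 without a match kept the array name. With 1 array per genotype, no test was run, and a difference of 1 log2 unit counts as 2-fold. The scripts were tested on simulated data. Alternatives were normexp (offset 50, limma 3.58.1), quantile and cyclic loess normalization, median centring, the authors' values, no filter, a stricter filter (8 times the lowest signal well above background), the brightest probe, and a scale from 8 spike-in probes. The members and the 19 lists were chosen with earlier results of these data known. Named were all members, P2ry6, and up to 4 measured genes of each list by size of difference, with up to 2 bounds, besides genes said to be added. Genes not well above background are named too. Python 3.11.15 was used.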

Additional observations from a re-analysis of the deposited data

How the results depend on the processing

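Of the 10 members, S100a6 and S100a10 changed sign under at least 1 of the 9 alternatives, and the other members kept theirs wherever they were measured. S100a1 and S100a2, which are no members, changed sign too. The number of members at least 2-fold lower was 0 under normexp correction and 0 under the stricter filter, which measured 8 members and left out S100b and S100a7a, so that 0 were at least 2-fold higher there. On the spike-in scale 5 members were lower, with a median of −0.95. Among the genes between the chromosome 3 members, chosen after seeing the data, as were the alternatives run on them, on the lists and on other named genes, the count at least 2-fold lower was 15 under quantile normalization, 16 under cyclic loess, 19 with the authors' values and 50 on the spike-in scale, where their median was −1.51. The cause of these shifts was not tested beyond the scale itself. A difference counted as moved when it shifted by more than the SD of 0.38 between probes of a gene. Over all genes, normexp gave 368 higher and 578 lower, the stricter filter 383 and 597, and the spike-in scale 320 and 3127, against 957 and 1002. Without a filter the counts were 2243 and 2135 of 37320 genes, and median centring gave 760 and 1228. Signals near background, such as S100a7a on the KO-labelled array, or dim, such as S100b on the WT-labelled array, limit the precision of a fold. Modelled errors cover the spot alone. No paired analysis was possible because each genotype has 1 array.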

Other observations

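S100pbp, named for binding the S100P protein in human, is no S100 gene and was looked up after the values were seen. Its 4 probes were all higher on the KO-labelled array, with a mean difference of 0.69 ± 0.23 (SD, n = 4 probes) and a range of 0.42 to 0.95, or 1.62-fold higher. On the spike-in scale that difference would read 0.46 lower.

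Lcn2, a siderophore-binding protein that is often induced together with S100a8 and S100a9 in inflamed epidermis, was the hyperproliferative marker that was at least 2-fold higher (1.099 ± 0.05, SD, n = 2 probes). On the spike-in scale 0 of 14 hyperproliferative markers were at least 2-fold higher, with 0.64 the highest. The choice to name Lcn2 here came after its value was known.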
